A study of Mus musculus with 2 samples.

Results

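The 9 genes described here cover the path of retinoic acid through a cell, from the uptake of retinol (Stra6) through its oxidation to retinaldehyde (Rdh10) and to retinoic acid (Aldh1a1, Aldh1a2 and Aldh1a3), the binding of retinoic acid in the cytoplasm (Crabp1 and Crabp2) and its hydroxylation and breakdown (Cyp26a1 and Cyp26b1). They were picked by name and by step of the pathway, and every probe set that named only that gene in the array annotation was taken. All 9 were measured, with 12 probe sets of the 45037 on the array, and 18193 genes had such a probe set in all. CH cells, called PlCH in the labels, were sorted by flow cytometry from the blood of C57bl/6 mice, healthy adults of 7 months and of both sexes, as small viable cells without CD45 and lineage markers. Each of the 2 arrays held RNA of a separate pool of 15 mice according to the submitters' notes, whereas the general methods of the study give younger mice and smaller pools. There was 1 group and no control array, so each signal could be set only against a fixed limit and against the other signals of the same arrays.

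Retinoic acid is the active form of vitamin A in development and in blood cell formation. It binds nuclear receptors of the RAR family, which sit on DNA together with RXR partners and switch target genes on or off, and its level in a cell is set by the balance of the dehydrogenases that make it and the CYP26 enzymes that destroy it. In embryos, cells that express Aldh1a enzymes act as sources and cells that express Cyp26 enzymes as sinks. Pluripotent cells respond to retinoic acid by differentiating, and several genes of the pathway, Cyp26a1 and Rarb among them, are direct targets that carry a retinoic acid response element.

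Values are log2 signals as deposited. A signal of 5 was taken as the limit. The study used that value in another way, dropping from its clustering only genes below it in every cell population of its dataset, and its use on the CH arrays alone was chosen here. Receptors that sense odours and tastes (chemosensory receptors) served as background genes. The median over their 83 probe sets was 4.04, the 95th percentile was 6.05, and the highest, of Vmn1r44, reached 6.92. Signals of different probe sets also depend on how well each probe binds its target, so a higher signal of 1 gene than of another does not show more transcript. In RNA of pooled cells, few cells with much transcript and many cells with little cannot be told apart.

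In CH cells the signals of the pathway were uneven from step to step. Crabp1, Cyp26a1 and Rdh10 were far above the limit, Crabp2, Cyp26b1 and Stra6 were above it within the range of the background genes, and none of the 3 Aldh1a genes was above it by limma. By highest probe set, 7 of 9 genes were above 5 on both arrays, where 71.2% of all genes were. With limma (intercept alone, Benjamini-Hochberg adjustment over all probe sets), 6 of the 9 were above 5 at an adjusted p under 0.05, where 69.1% of all genes were, 1 was below it, where 23.6% were, and 2 were neither. These shares are near those of all genes. The median over the 9 genes was 6.24 and that over all genes 6.84. By probe set, 8 of 12 were above 5 on both arrays (57.2% of all probe sets), 3 were below it on both and 1 lay on either side. With limma, 7 of the 12 probe sets were above 5 (54.8% of all probe sets) and 2 below (36.4%). The call of a gene depended on the limit, and 4 of the 9 genes were above 6 on both arrays (57.8% of all genes), 4 above the 95th percentile of the background (57.3%) and 3 above 8 (37.0%). Of the 12 probe sets, 5 were above 6 (42.5% of all), 5 above that percentile (41.9%) and 3 above 8 (24.4%). With 2 arrays, the p-values set the distance from 5 against the spread between the arrays and no other variation. With 1 array per pool, that spread does not separate the pools from the handling of the arrays. In limma, the spread of each probe set is drawn towards that of all probe sets.

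**Figure D1:**
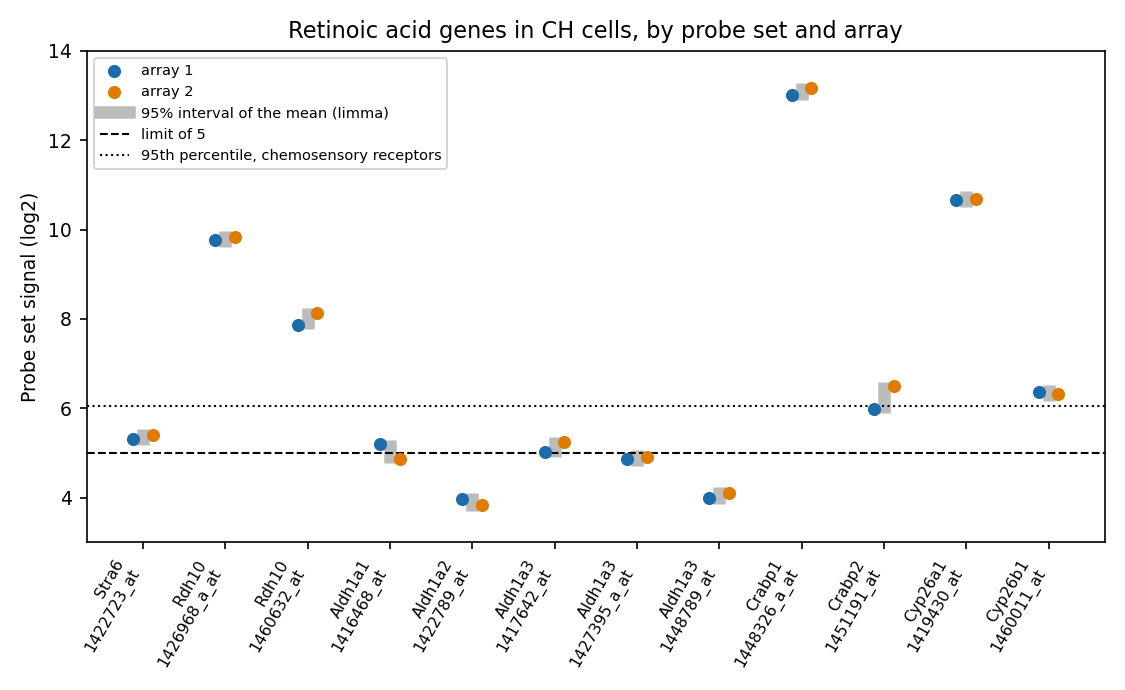
Log2 signal (vertical axis) of each of the 12 probe sets of the 9 genes (horizontal axis, from uptake to breakdown) on array 1 (blue) and array 2 (orange), with the 95% interval of the mean from limma as a grey bar. A dashed line is drawn at the limit of 5 and a dotted line at 6.05, the 95th percentile of the background. Crabp1, Cyp26a1 and both probe sets of Rdh10 stand well above both lines, while the Aldh1a probe sets lie around or below 5.

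Stra6 encodes the membrane receptor that takes up retinol from its carrier in plasma. Its probe set 1422723_at read 5.30 on array 1 and 5.41 on array 2, a mean of 5.36 ± 0.08 (SD, n = 2 arrays). Both arrays were above 5 and the adjusted p of limma was 0.0055. The signal was still low, since 11 of the 83 chemosensory receptor probe sets were higher.

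Rdh10 encodes the retinol dehydrogenase that carries out the first oxidation in the embryo, and both of its probe sets were high. Probe set 1426968_a_at read 9.76 and 9.83 on the arrays, a mean of 9.79 ± 0.05. Probe set 1460632_at read 7.87 and 8.14, with an SD of 0.19. No background probe set reached either of them, and the adjusted p of limma against 5 was 1.4e-07 for the higher probe set and 1.8e-06 for the lower. Array 1 was the lower in both, by 0.27 at the lower probe set and by 0.07 at the higher.

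Aldh1a1, Aldh1a2 and Aldh1a3 encode the retinaldehyde dehydrogenases, the enzymes that produce retinoic acid. Aldh1a1, also known as a marker of stem and progenitor cells in several tissues, read 5.21 on array 1 and 4.87 on array 2 and thus lay on either side of the limit. Its mean of 5.04 ± 0.24 had a 95% interval of 4.78 to 5.30 (adjusted p = 0.72 from limma). Aldh1a2, the main source of retinoic acid in the early embryo and in mesothelium, read 3.97 and 3.84. Its mean of 3.90 ± 0.10 was below 5 (adjusted p = 5.2e-05 from limma), and 47 of the 83 background probe sets were higher.

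Aldh1a3, which makes retinoic acid in the developing eye and nose, had 3 probe sets that did not give the same call. The highest, 1417642_at, read 5.02 and 5.25, a mean of 5.13 ± 0.16 with a 95% interval of 4.91 to 5.35 (adjusted p = 0.20 from limma). Probe set 1427395_a_at read 4.86 and 4.90, just below the limit (adjusted p = 0.16), and 1448789_at read 3.99 and 4.11 and was below it (adjusted p = 9e-05). The highest and the lowest were designed on the same transcript record, AF253409. Aldh1a3 counted as above 5 on both arrays only through the highest of these probe sets, and the median of the probe sets was 4.88.

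Crabp1 and Crabp2 encode paralogous small proteins that hold retinoic acid in the cytoplasm. CRABP2 is known to hand it to the RAR receptors in the nucleus, and CRABP1 to keep it in the cytoplasm and to favour its breakdown. The only probe set of Crabp1, 1448326_a_at, read 13.01 on array 1 and 13.17 on array 2, a mean of 13.09 ± 0.11 (adjusted p = 8.9e-08 from limma). Of all probe sets on the arrays, 99.2% were lower. Signals at this height can be compressed, so a difference there may be understated.

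The probe set of Crabp2, 1451191_at, read 5.98 on array 1 and 6.50 on array 2, a mean of 6.24 ± 0.37. It was above 5 (adjusted p = 0.00036 from limma), and 2 of the 83 background probe sets were higher. Array 1 lay below the 95th percentile of the background and array 2 above it. The paralogs were read by different probe sets, so the gap between their signals was not tested.

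Cyp26a1 and Cyp26b1 encode the hydroxylases that break retinoic acid down. Cyp26a1, which retinoic acid itself induces, read 10.66 and 10.69 with probe set 1419430_at, a mean of 10.68 ± 0.02 (adjusted p = 9.8e-08 from limma). Of all probe sets 93.6% were lower, and the arrays differed by only 0.03. Cyp26b1, which protects male germ cells and limb buds from retinoic acid in the embryo, read 6.37 and 6.31 with probe set 1460011_at, a mean of 6.34 ± 0.04 (adjusted p = 1.7e-05 from limma). It was above the 95th percentile of the background on both arrays, although 2 background probe sets were higher.

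**Figure D2:**
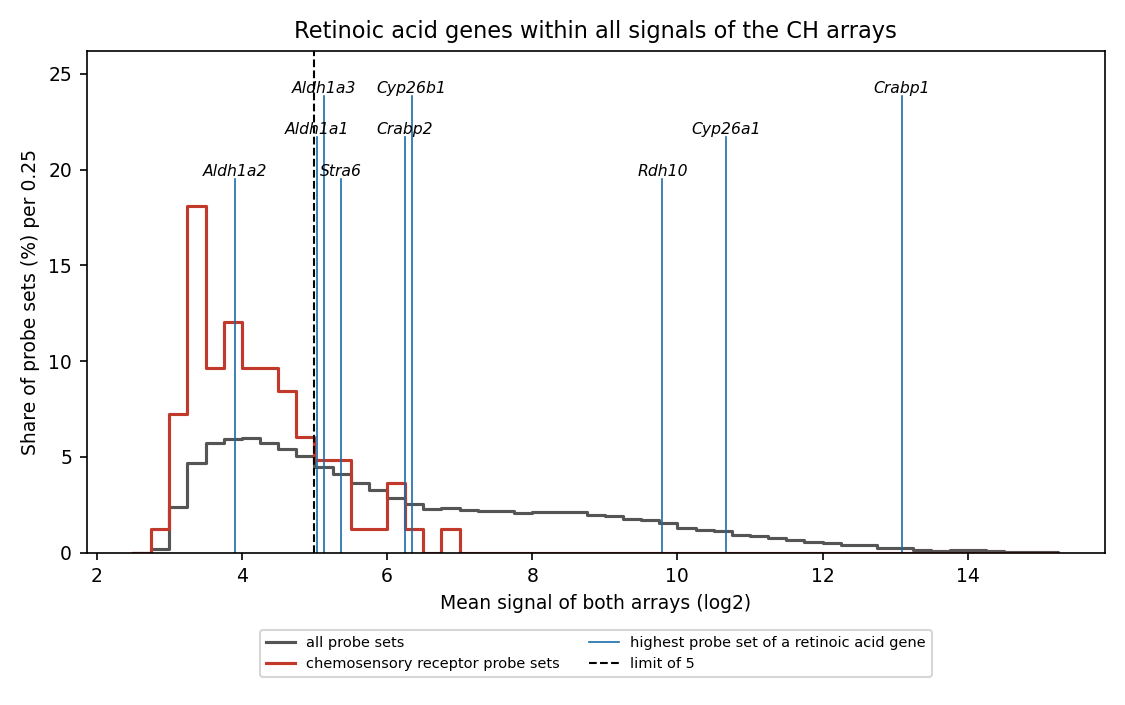
Share of probe sets (vertical axis, % per 0.25 log2) by the mean log2 signal of both arrays (horizontal axis), for all probe sets (grey) and chemosensory receptor probe sets (red). Blue lines mark the highest probe set of each of the 9 genes. Rdh10, Cyp26a1 and Crabp1 lie beyond the highest receptor signal of 6.92, and the other 6 lie within the receptor range.

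The 12 probe sets also differed in how far the arrays agreed. Array 1 was lower than array 2 in 9 of the 12 and higher in 3, whereas it was lower in 50.2% of all probe sets. The median absolute difference was 0.13 for the 12 probe sets and 0.12 for all. Crabp2 differed most, with array 1 lower by 0.52, and of the 4919 probe sets within 0.5 of its level 3.03% differed by more. For Crabp1 the difference was only 0.15, but signals so high varied little, and 3.65% of the 411 probe sets near its level differed by more. At the lower probe set of Rdh10, 9.23% of those near its level differed by more, and at Aldh1a1, where array 1 was higher by 0.34, 16.1% did. With 1 array per pool, no difference between the pools could be tested.

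**Figure D3:**
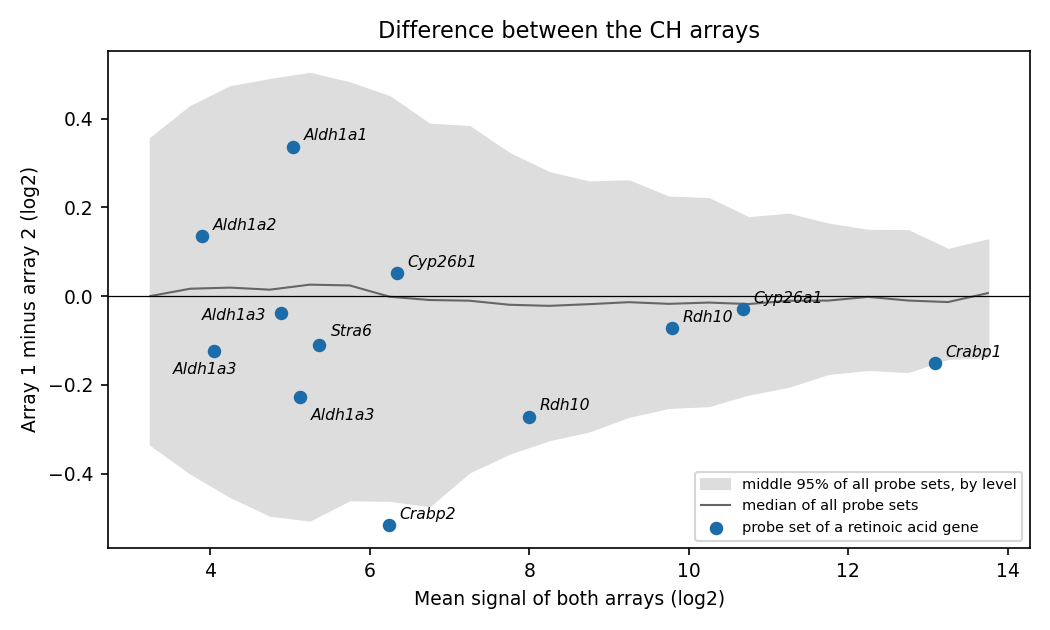
Difference between the arrays (vertical axis, array 1 minus array 2, log2) against the mean log2 signal (horizontal axis) for the 12 probe sets (blue), with the middle 95% (grey band) and the median (grey line) of all probe sets of the same level. Crabp2 lies lowest at -0.52 and Aldh1a1 highest at 0.34.

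Of the nuclear receptors that retinoic acid acts through, 5 of 6 genes were above 5 on both arrays, a share near the 71.2% of all genes. Rxrb read 9.42 and 9.31, Rarg 8.66 and 8.48, Rxra 8.13 and 7.89, Rara 6.47 and 6.66 and Rxrg 5.47 and 5.35. Rarb read 4.82 and 4.57 and was below 5 (adjusted p = 0.021 from limma). Of the other probe sets, that of Rarg averaged 6.85 and those of Rxra 7.56 and, with 3.99 and 4.01 on the arrays, below the limit. Thus Rarb and Cyp26a1, both textbook targets of retinoic acid, lay on opposite sides of the limit.

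The response elements of Cyp26a1 and Rarb are printed here because these are a pair of known direct targets with unlike signals. Each was read by its only probe set. The DR5 element is a direct repeat of 2 units of 6 bases with 5 bases between them, and it was searched on both strands with AGTTCA or AGGTCA or GGTTCA or GGGTCA as either unit, in RefSeq promoter windows of GRCm38.p6 that run from 250 bases before to 50 bases after a start site. Of the 27025 genes with a window, 31 held a match (0.115%), as did 32 of 32851 windows (0.0974%). Windows were matched for 6 of the 9 genes of the pathway, and Cyp26a1 alone of these held a match. Among the 6 receptor genes only Rarb did. In the sequences below, read 5′ to 3′ on the strand of the gene, capitals mark the repeat units, and in Cyp26a1 the repeat runs on the opposite strand.
Cyp26a1: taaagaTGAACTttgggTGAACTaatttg
Rarb: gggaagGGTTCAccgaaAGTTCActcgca

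The stretch of Cyp26a1 lies at chr19:37697770-37697798 on the plus strand, with the repeat from 32 to 16 bases before the start site of its window. That of Rarb lies at chr14:16575507-16575535 on the minus strand, with the repeat from 53 to 37 bases before the start site. Both stretches fall within the RefSeq span of their gene, which begins further upstream. Cyp26a1 averaged 10.68 and Rarb 4.69. The pair was picked as known targets with unlike signals. A match in a high and in a low gene was thus fixed by the choice and is no result about signals. Of the 31 genes with a match, 11 had a probe set, and 4 of these were above 5 on both arrays, where 71.2% of all genes were. A match of letters does not show that a receptor was bound, and it does not say what sets a signal.

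Of 21 genes known to respond to retinoic acid, members of the pathway included, 17 had a probe set and 13 of these (76.5%) were above 5 on both arrays, near the 71.2% of all genes. At a limit of 6, 7 of the 17 were above it (57.8% of all genes), and as many at the 95th percentile of the background (57.3%). The highest were Nr2f2, an orphan nuclear receptor (11.44 and 11.45), Cyp26a1, Nr2f1, the paralog of Nr2f2 (9.56 and 9.22), and Rai1 (8.43 and 8.47). The other probe sets of Nr2f2 averaged from 9.30 down to 3.71, and that of Rai1 5.41. The lowest were Rarres1 (3.76 and 3.77), Hoxb1, a gene of the hindbrain (4.24 and 3.84), Rarb and Cdx1, a gene of the posterior embryo (4.92 and 4.75). Stra8, the retinoic acid target of germ cells that enter meiosis, read 5.75 and 5.62. The list median of 5.70 was below that of all genes, and the response of these genes was not tested because no array was treated.

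Outside the 9 genes, 35 of 39 other genes of retinoid metabolism had a probe set, and 17 of the 35 (48.6%) were above 5 on both arrays, where 71.2% of all genes were. With limma, 17 were above 5 (69.1% of all genes), 15 below (23.6% of all genes) and 3 neither. Of 6 genes of uptake and transport, 3 were above 5 on both arrays, and the highest of them, Rbp2, averaged 6.18. Rbp4, the carrier of retinol in plasma, read 5.59 and 5.27, and Stra6l, a retinol receptor of liver and gut, 3.46 and 3.72. Lrat, the enzyme that stores retinol as esters, had the lowest signal of the list at 3.56 and 3.41, and its other probe set read 3.32 and 3.51. Neither Bco1 nor Bco2, the enzymes that cleave carotenoids, was above 5 on both arrays (4.55 and 4.76 for Bco1, 4.51 and 4.94 for Bco2).

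The oxidoreductases of retinol and retinaldehyde ranged from high to low signals. Of 16 with a probe set, 9 were above 5 on both arrays (71.2% of all genes) and 6 above 8 (37.0%). Adh5, a dehydrogenase present in most cells that acts mainly on other substrates, read 11.98 and 12.03, Adh7, a dehydrogenase that oxidises retinol in epithelia, 10.37 and 10.50, and Rdh14 10.22 and 10.15. The other probe sets were lower, at 4.80 for Adh5, 8.20 for Adh7 and 5.38 and 4.26 for Rdh14. Dhrs3, which reduces retinaldehyde back to retinol, read 5.25 and 5.53. Among the lowest were Rdh9 (3.43 and 3.63) and Rdh1 (3.71 and 3.50).

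Other routes to retinoic acid run through enzymes that mainly serve other reactions. Of 4 such genes, 3 were above 5 on both arrays, near the 71.2% of all genes. Aox1, an aldehyde oxidase, read 7.15 and 7.22, Cyp1b1, a cytochrome that can oxidise retinol, 6.46 and 6.71 and Aldh8a1, which prefers 9-cis-retinaldehyde, 5.28 and 5.28. The other probe sets of Cyp1b1 were at 4.23 and 4.22 and that of Aldh8a1 at 4.46. Fabp5, which carries retinoic acid to the receptor PPAR-delta and binds fatty acids, read 12.36 and 12.46 and was the highest gene of the list.

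**Figure D4:**
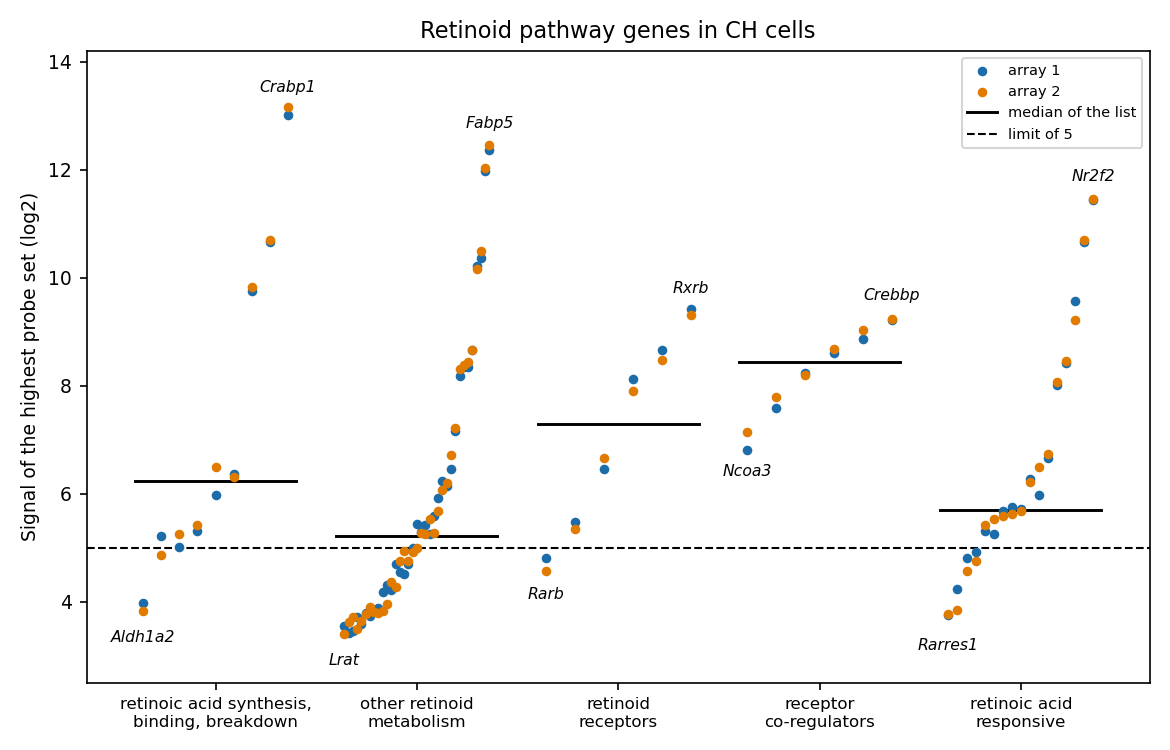
Log2 signal of the highest probe set (vertical axis) on array 1 (blue) and array 2 (orange) for the genes of 5 lists (horizontal axis), sorted by level, with the list median as a black bar and the limit of 5 as a dashed line. The lowest and the highest gene of each list are named. The medians run from 5.22 for other retinoid metabolism to 8.43 for receptor co-regulators.

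Co-activators and co-repressors that the receptors share with other nuclear receptors were above 5 on both arrays in 6 of 6 genes with a probe set. Of all genes, 71.2% were. Crebbp and Ep300, the histone acetyltransferases, read 9.22 and 9.23 and 8.87 and 9.03, and Ncoa2 read 8.60 and 8.68. Ncoa1 read 8.24 and 8.20 and Ncoa3, the lowest, 6.80 and 7.15. Nrip1, a co-repressor that retinoic acid induces, read 7.59 and 7.79. Among the other probe sets, the lowest of Ncoa1 averaged 3.61 and that of Nrip1 4.17, both below 5. Those of Crebbp, Ncoa2 and Ncoa3 stayed above 5 on both arrays. The lowest of Ncoa2, at 5.05 and 5.32, was not above it by limma (adjusted p = 0.11). Another of Nrip1 lay on either side of the limit, at 5.17 and 4.97.

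Markers of other cells were checked for the same arrays, by highest probe set. The counts are of genes above 5 on both arrays, where 71.2% of all genes were. Mesenchymal markers were above 5 in 6 of 6 genes (7.47 to 14.27) and pluripotency markers in 6 of 6 (6.02 to 9.49), against 2 of 4 for leukocytes (3.85 to 6.61), 1 of 3 for erythroid cells (4.22 to 5.90), 4 of 4 for platelets (5.98 to 7.18), 2 of 4 for endothelial cells (4.34 to 6.43), 2 of 4 for mesothelial cells (4.12 to 8.44), 1 of 4 for retinal pigment epithelium (3.61 to 6.03) and 4 of 5 for hepatic stellate cells, which store retinol (3.48 to 6.67). The mesothelial markers above the limit, Krt19 and Msln, were both above 8, while Wt1 and Upk3b were below 5. The hepatic stellate markers above the limit each also had a probe set below 5 by limma. Their lowest averaged 4.22 for Des, 3.68 for Gfap, 3.61 for Hgf and 4.22 for Reln. Cdh5 of the endothelial markers likewise had another at 4.14. The highest background probe set, at 6.92, was above Dppa3 (6.02) and Zfp42 (6.59) among the pluripotency markers. Among the platelet markers it was above Pf4 (5.98) and Gp9 (6.41). All markers of leukocytes, erythroid, endothelial and hepatic stellate cells and retinal pigment epithelium were below it too. Ptprc, which encodes the CD45 that the sort excluded, read 4.95 and 5.24. Which cells of the pools carried the signals of Crabp1, Cyp26a1 and Rdh10 was not tested.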

How the data were processed

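The authors hybridised RNA of CH cells to Affymetrix mouse genome arrays and deposited log2 signals per probe set. Their methods describe RMA and quantile normalisation over these arrays and public ones. That the deposited values are from that run, and the tool versions, are not given in the sources used here. Such a step can hide a difference between the pools. After removal of 64 control probe sets, 45037 remained, of which 34945 named 1 gene, 932 several and 9160 were not listed. Array medians were 5.54 and 5.52, and the SD of the difference between the arrays was 0.20.

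Probe set means were compared with 5 by limma 3.58.1 in R 4.3.3 (two-sided, over all probe sets). On simulated data for this comparison, run on 45037 probe sets, limma recovered 97% of 100 probe sets set 0.5 above the limit and 100% of 100 set 1.0 above it. Of 44837 probe sets at or below the limit, many of them placed exactly on it, limma called 0.772% and the rule of both arrays above 5 called 15.0%, so that rule alone does not separate a signal at the limit from 1 above it. Python 3.11.15 was used otherwise. All 9 genes were named, with up to 4 of the highest and lowest genes of each other list and all retinoid receptors. Rbp2, Rbp4, Aldh8a1, Cyp1b1, Aox1, Bco1, Bco2, Dhrs3 and Stra8 were named after their values were seen, as were the markers. The DR5 search and its report were added after the signals were seen. The genes and lists were chosen with earlier results of these data known. Alternatives were other limits, limma, quantile normalisation, the median of probe sets, the omission of probe sets and single arrays. The number of arrays limits the precision.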

Additional observations from a re-analysis of the deposited data

How the results depend on the processing

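No paired analysis was possible because the arrays form 1 group. With a limit of 6, the counts were 4 of the 9 genes, 5 of their 12 probe sets and 7 retinoic acid responsive genes. With the limit at the 95th percentile of the background, they were likewise 4, 5 and 7. With a limit of 8, 3 of the 9 genes (Rdh10, Crabp1 and Cyp26a1), 3 of their probe sets, 8 other genes of retinoid metabolism, 2 receptors and 5 responsive genes were above it. Of all genes, 37.0% were above 8 on both arrays. A higher limit admits fewer genes by construction. Without probe sets ending in _s_at, _x_at or _a_at, 3 receptor genes were above 5, because only 4 of the 6 kept a probe set, and Crabp1 had none left. The other 41 alternatives for counts stayed within 1.5 times. For the 9 genes, the count ranged from 7 with array 2 alone to 8 with array 1 alone, where Aldh1a1 was added, and it was 6 with the median of probe sets, where Aldh1a3 was lost. The level of Rdh10 was 8.90 with that median and 8.003 without _s_at, _x_at and _a_at probe sets, where it read 7.87 on array 1 and was no longer above 8 on both arrays, and that of Aldh1a3 was 4.88 with the median. Quantile normalisation of both arrays moved no call of the 9 genes. With array medians already at 5.54 and 5.52, it could change little.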
